A study of Homo sapiens with 4 samples.

Results

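Short peaks with very high scores were described in a RIP-seq study of the RNA-binding protein HuR, in which RNA recovered with HuR from irradiated and unirradiated fibroblasts was sequenced. A short high-score peak was chosen by measured values, namely a length under 600 bp and a peak score of 1000 or more in the list of its own dose. The 0 Gy list held 1270 such peaks among 47930, or 2.65% of the list, and the 5 Gy list held 765 among 36216, or 2.11%. They made up 21.7% of the 5866 peaks of score 1000 or more at 0 Gy and 16.2% of the 4730 at 5 Gy.

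The cells were WS1, a human skin fibroblast line. All cultures were of this line, and they received X-rays at a dose of 0 Gy or 5 Gy. At each dose 1 library came from RNA recovered with HuR and 1 from RNA recovered with control immunoglobulin (IgG), and the labels give no time after irradiation. Each group was a single library, so differences between the doses have no replicate check and no p-value is given. Intervals (95%) cover counting error among peaks, treat neighbouring peaks as independent, and say nothing of the spread between cultures. The score is the authors' own value for each peak. It starts at 60, has the form of −10 log10 of a p-value, and depends on sequencing depth, which is unknown from these lists.

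HuR, encoded by ELAVL1, is a ubiquitous member of the ELAV/Hu family and is mostly nuclear in resting cells. It is known for binding U-rich and AU-rich stretches in introns and 3′ untranslated regions and for stabilising many of the mRNAs it binds. DNA damage is known to change which mRNAs it holds, in part through phosphorylation by the checkpoint kinase CHK2. In RIP-seq the reads come from whole recovered RNA fragments, so a peak marks a recovered stretch of transcript and not a footprint of the protein. The peaks were placed by hg19 position and were not joined to genes, exons or sequences. The labelled cell type was therefore not checked against marker genes.

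Length and score, which chose these peaks, are given as a description. The peaks measured 151 to 599 bp at 0 Gy (median 413 bp) and 185 to 599 bp at 5 Gy (median 450 bp). At 0 Gy the lengths had a first crowding from 225 to under 250 bp (87 peaks per 25 bp), a dip from 325 to under 350 bp (50 peaks) and a second crowding from 425 to under 450 bp (100 peaks). At 5 Gy the shortest classes were thinly filled, with 3 peaks under 200 bp and 42 from 200 to under 250 bp, against 39 and 138 at 0 Gy. The median score was 1920 at 0 Gy and 1863 at 5 Gy. A score of exactly 3100, which a large number of peaks share and within which no order exists, was held by 326 of the 1270 peaks (25.7%) at 0 Gy and 191 of the 765 at 5 Gy. Among the peaks of score 1000 or more with a length of 600 bp or more, 46.9% at 0 Gy and 45.6% at 5 Gy held it. A score above 3100 was given to 18 short peaks at 0 Gy and 9 at 5 Gy. Scores of 3100 or more were least frequent among the shortest peaks. At 0 Gy they were held by 7.69% of the 39 peaks under 200 bp, 12.3% from 200 to under 250 bp, 34 of the 148 from 250 to under 300 bp, 31.1% from 300 to under 400 bp, 27.9% from 400 to under 500 bp and 33.8% of the 305 peaks from 500 bp.

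**Figure D1:**
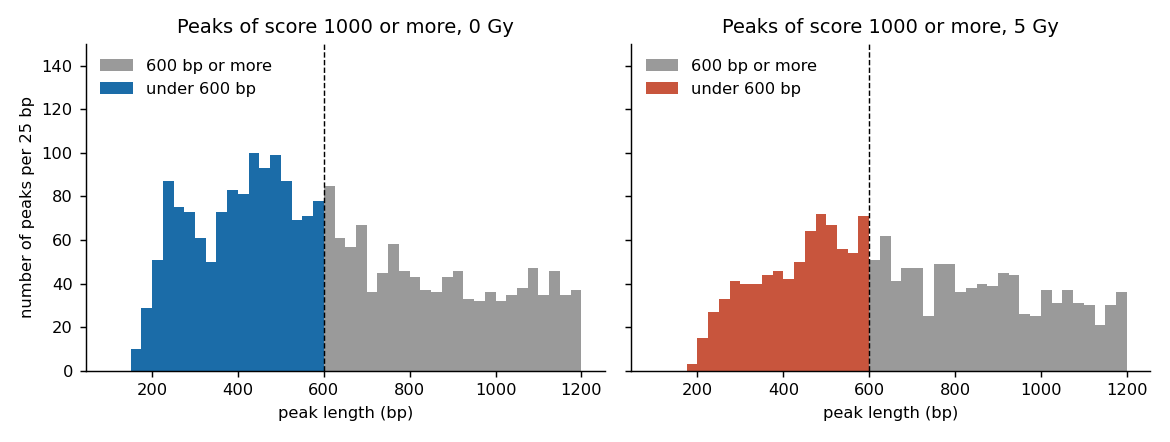
Lengths of peaks of score 1000 or more in 25 bp classes up to 1200 bp, at 0 Gy (left) and 5 Gy (right), with the vertical axis giving the number of peaks and the dashed line the limit of 600 bp. Coloured bars are the 1270 and 765 short peaks, grey bars the longer ones. The bars run on across the limit without a gap, and peaks under 250 bp are a larger part at 0 Gy.

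The thresholds did not fall in a gap of the values. The 5 short high-score peaks nearest the length limit measured 598 to 599 bp at 0 Gy and 599 bp at 5 Gy, and the nearest outside it 600 to 601 bp and 600 to 602 bp. The 5 lowest scores inside the rule were 1000.58 to 1005.2 at 0 Gy and 1000.61 to 1007.21 at 5 Gy. The 5 short peaks just below the minimum scored 997.58 to 999.45 and 994.94 to 999.84.

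Each of the 5 shortest peaks of either list overlapped a peak of the other dose, and the scores of the pair differed. At 0 Gy the shortest covered 151 bp of chromosome 19 (6563490 to 6563640) and scored 1317.55, and its 5 Gy partner of 192 bp scored 306.62. The next, on chromosome 12 (92363161 to 92363319, 159 bp, score 1442.75), overlapped the shortest of the 5 Gy peaks (92363148 to 92363332, 185 bp, score 1192.56), so that the same stretch stood at the short end of both lists. A 162 bp peak on chromosome 11 (128360330 to 128360491) scored 1039.87 at 0 Gy, while a 392 bp peak of score 158.81 covered it at 5 Gy. Of the pair of 166 bp peaks on chromosome 1, the one from 109482637 to 109482802 scored 1056.85 and 82.28 at 5 Gy, and the one from 210440349 to 210440514 scored 1184.37 and 416.71. At 5 Gy the next shortest peaks lay on chromosome 6 (6795105 to 6795300, 196 bp, score 1060.65, against 2213.21 at 0 Gy) and chromosome 2 (209103778 to 209103976, 199 bp, score 2089.24, against 2949.82 at 0 Gy). Those of 201 bp lay on chromosome 13 (114287409 to 114287609, score 1035.40 against 427.76) and chromosome 6 (20955642 to 20955842, score 1299.57 against 190.01).

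Short high-score peaks were found on all autosomes and X in both lists. Among peaks of score 1000 or more, the short ones made up from 14.8% (chromosome 22, 13 of 88) to 34.5% (chromosome 18, 39 of 113, 95% interval 26.4 to 43.7) at 0 Gy. At 5 Gy the share ran from 9.38% (chromosome 21, 3 of 32) to 25.5% (chromosome 18, 24 of 94, 95% interval 17.8 to 35.2). Of the 23 chromosomes, 2 at 0 Gy and 1 at 5 Gy had an interval wholly above the share of their list, and 1 and 2 an interval wholly below it. Besides chromosome 18, the one above at 0 Gy was chromosome 11 (26.6%, 22.1 to 31.8). The intervals were not adjusted for the number of chromosomes, so some are expected to miss the share of their list by counting error. On chromosome 18, the highest in both lists, 10 of the 39 peaks at 0 Gy and 9 of the 24 at 5 Gy belonged to 1 chain described below.

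Isolation was measured as the gap to the nearest peak of the same list. Short high-score peaks stood a median of 1474 bp from it at 0 Gy (1345 to 1630). At 5 Gy the median was 1616 bp (1428 to 1854). Over the full lists the medians were 870 bp (848 to 892) and 1217 bp (1185 to 1254), smaller than those of short high-score peaks. Among short peaks of score under 1000 they were 1048 bp at 0 Gy and 1606 bp (1556 to 1663) at 5 Gy. Among long peaks of score 1000 or more they were 1588 bp (1454 to 1746) and 2426 bp (2228 to 2641). The greater gap at both doses thus held against the full lists, and not against each of these classes. No other peak lay within 10 kb of 181 short high-score peaks at 0 Gy (14.3%, 12.4 to 16.3). At 5 Gy this held for 127 of them (16.6%, 14.1 to 19.4). The shares were 14.0% of the full 0 Gy list and 18.6% of the full 5 Gy list. By this share at 10 kb short high-score peaks were close to the full lists. Long peaks of score 1000 or more were without a neighbour within 10 kb in 18.3% of cases at 0 Gy (17.2 to 19.4) and 23.3% at 5 Gy (22.0 to 24.6), above the short ones at both doses.

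Very close neighbours were rarer than in the other classes. Another peak lay within 100 bp of 56 of the 1270 short high-score peaks at 0 Gy (4.41%, 3.41 to 5.68) and of 36 of the 765 at 5 Gy (4.71%, 3.42 to 6.45). The background was 16.7% over the full 0 Gy list and 14.9% over the full 5 Gy list. Short peaks of score under 1000 had such a neighbour in 12.9% of cases at 0 Gy and 10.3% at 5 Gy, and long peaks of score 1000 or more in 16.2% and 11.6%. None of these intervals overlapped that of the short high-score peaks. Within 1 kb the share was 40.6% of short high-score peaks at 0 Gy (38.0 to 43.4), below the 52.7% of the full list (52.2 to 53.1) and the 49.1% of short peaks of score under 1000 (48.6 to 49.7). At 5 Gy it was 38.6% (35.2 to 42.1), below the 46.6% of the full list (46.0 to 47.1), while the interval of short peaks of score under 1000 (40.6%, 39.9 to 41.3) overlapped it. Long peaks of score 1000 or more had a neighbour within 1 kb in 42.6% of cases at 0 Gy and 35.8% at 5 Gy, with intervals that overlapped those of the short ones. From 3 to 5 other peaks lay within 10 kb of 445 of the 1270 at 0 Gy and 302 of the 765 at 5 Gy, and the most crowded had 16 and 12. The median number was 3 at both doses, beside 3 in the full 0 Gy list and 2 in the full 5 Gy list.

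**Figure D2:**
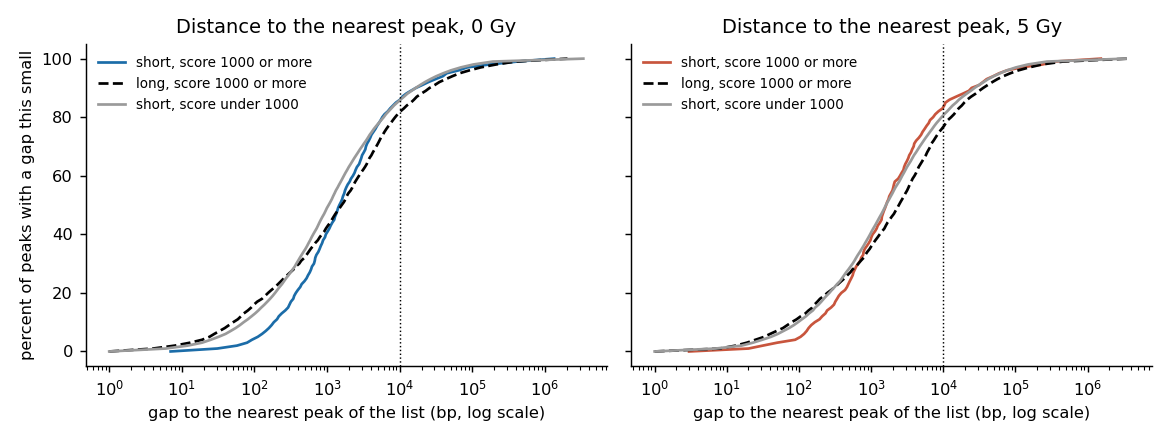
Percent of peaks (vertical axis) whose nearest peak of the same list lies at the gap on the horizontal axis or closer (bp, log scale), at 0 Gy (left) and 5 Gy (right), with a dotted line at 10 kb. Short high-score peaks (coloured) start later than long high-score peaks (dashed) and short peaks of score under 1000 (grey), since 4.41% and 4.71% of them have a neighbour within 100 bp, and approach or cross the other curves at larger gaps.

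The closest neighbours of short high-score peaks nearly touched them. On chromosome 12 the 0 Gy peaks from 6442857 to 6443210 (354 bp, score 1523.66) and from 6443218 to 6443578 (361 bp, score 2013.27) were 7 bp apart, and each lay against a 5 Gy peak, with scores of 1381.51 and 1652.96. A gap of 7 bp also followed the 0 Gy peak on chromosome 18 (61067238 to 61067659, score 1401.65), where a single 5 Gy peak of 894 bp scored 580.19. On chromosome 9 (33061905 to 33062366, score 2441.80, 986.40 at 5 Gy) the gap was 9 bp, and on chromosome 7 (23547004 to 23547513, score 2465.16) it was 18 bp, with a 5 Gy peak of 1547 bp and score 1057.10 over it. The closest at 5 Gy, with a gap of 3 bp, lay on chromosome 12 (56737567 to 56737970, score 1181.94, 1458.51 at 0 Gy). Gaps of 5 to 12 bp adjoined 5 Gy peaks on chromosome 1 (35656891 to 35657412, score 3100, and 222891999 to 222892546, score 1165.86), chromosome 3 (145799461 to 145799863, score 1157.05) and chromosome 11 (63448947 to 63449460, score 1028.25).

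At the other extreme stood peaks with no neighbour over very long distances, and most of those named were found in both lists. The 0 Gy peak on chromosome 10 from 107446068 to 107446583 (516 bp, score 3100) was 1332809 bp from the nearest peak, and its 5 Gy partner of 555 bp (score 2595.10) was 1349816 bp away from any other. On chromosome 3 the peaks from 104221501 to 104222067 at 0 Gy (score 1988.57) and from 104221490 to 104222066 at 5 Gy (score 1779.20) stood 863399 bp and 850383 bp from the nearest peak of their list. Also among the 5 most isolated of both lists were peaks on chromosome 6 (39926082 to 39926633 at 0 Gy, scores 1868.18 and 1097.87) and chromosome 3 (60715713 to 60716127 at 0 Gy, score 3100 at both doses). The peak on chromosome X from 116097360 to 116097884 scored 3100 at 0 Gy and 778.72 at 5 Gy, so its partner fell outside the rule. The most isolated at 5 Gy was on chromosome 2 (7464669 to 7465199, score 3100 at both doses), 1527560 bp from the nearest peak. Of the 571 pairs described below in which both peaks were short and of high score, 97 had no neighbour within 10 kb at 0 Gy, 103 had none at 5 Gy and 93 had none at either dose.

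Short high-score peaks often had another strong peak within 10 kb. Another peak of score 1000 or more in the same list was within 10 kb of 871 of them at 0 Gy (68.6%) and 504 at 5 Gy (65.9%), where 25.9% of the full 0 Gy list and 23.4% of the full 5 Gy list had one. Among long peaks of score 1000 or more the shares were 36.6% and 31.6%. The nearest peak was itself a short high-score peak in 313 cases at 0 Gy (24.6%) and 187 at 5 Gy (24.4%). This held for 2.55% of all peaks at 0 Gy and 1.99% at 5 Gy. Among long peaks of score 1000 or more it held for 6.81% and 5.1%. The most frequent nearest peak of a short high-score peak was a short one of score under 1000, at 47.3% and 38.7%. A long one of score under 1000 was nearest in 9.29% and 15.6%. The nearest other peak of score 1000 or more was a median of 3765 bp away at 0 Gy and 4578 bp at 5 Gy. These counts use scores of the list that chose the peaks and are a description.

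For strong peaks within 10 kb, the list of the other dose gave the same picture from other libraries. With peaks that overlapped the peak itself left out, 821 of the 1270 short high-score peaks at 0 Gy (64.6%, 62.0 to 67.2) had a 5 Gy peak of score 1000 or more within 10 kb, where 20.8% of all 0 Gy peaks did. For the 765 at 5 Gy, 527 (68.9%, 65.5 to 72.1) had a 0 Gy peak of that score within 10 kb, where 26.2% of all 5 Gy peaks did. Among long peaks of score 1000 or more the shares were 28.7% (27.5 to 30.1) and 35.6% (34.1 to 37.1). The intervals of the short and the long peaks did not overlap at either dose. They count peaks as independent, although peaks near each other can share the same strong neighbour, and are therefore too narrow for this share.

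Short high-score peaks separated by at most 10 kb from the next one were grouped as a chain, by which 695 of the 1270 at 0 Gy and 454 of the 765 at 5 Gy stood alone. Chains of at least 5 numbered 20 at 0 Gy, holding 129 peaks (10.2%), and 9 at 5 Gy, holding 56 peaks (7.32%). Chains of 3 or 4 held another 206 peaks at 0 Gy and 111 at 5 Gy.

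The chain with the most peaks in the 0 Gy list lay on chromosome 11 (129979269 to 130012242), with 11 short high-score peaks among 13 peaks over 32.97 kb. They measured 290 to 575 bp, the median gap between them was 1310 bp, and 10 of the 11 scored 3100. At 5 Gy 9 peaks of the chain met the rule, from 129979268 to 130003692, with scores from 1831.75 to 3100. The last 0 Gy peak of the chain (130011736 to 130012242, 507 bp) was covered at 5 Gy by a peak of 4039 bp (130010800 to 130014838), also at 3100. The 290 bp peak at 129992167 likewise faced a 5 Gy peak of 642 bp at 3100. The chain was therefore present at both doses, and these members fell outside the rule at 5 Gy by length alone.

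On chromosome 18 (25562866 to 25593915) 10 short high-score peaks of 218 to 387 bp were spread over 31.05 kb at 0 Gy, with scores from 1017.64 to 3100. At 5 Gy 12 peaks lay in the same interval, as at 0 Gy, and 9 of them met the rule. Single peaks scored lower or higher at 5 Gy. The peak from 25573442 to 25573661 scored 2970.11 at 0 Gy and 954.58 at 5 Gy, and the peak from 25591785 to 25592002 scored 2016.19 and 464.47. By contrast the peak from 25585782 to 25585987 scored 395.44 at 0 Gy and 1250.37 at 5 Gy, and the peak from 25562866 to 25563088 scored 1933.15 and 2260.05.

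Chains on chromosomes 19 and 4 had peaks in the same places at 5 Gy, but fewer of them met the rule. On chromosome 19 (41726386 to 41763583, 37.2 kb) 10 peaks at 0 Gy and 5 of 18 at 5 Gy met the rule. On chromosome 4 (1206449 to 1235552, 29.1 kb) all 8 peaks met it at 0 Gy and 4 of 8 at 5 Gy. There the first 0 Gy peak of 474 bp (score 1883.19) was covered at 5 Gy by a peak of 1816 bp at 3100, and the peak from 1207198 to 1207493 fell outside by its score alone, 1341.66 at 0 Gy and 589.37 at 5 Gy. On chromosome 7 (148702011 to 148725788) all 7 short high-score peaks at 0 Gy scored 3100, and 5 of the 8 peaks there at 5 Gy met the rule. On chromosome 1 (40726471 to 40751828) the chain had 6 such peaks at 0 Gy and 7 at 5 Gy, where it reached from 40726408 to 40756875.

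**Figure D3:**
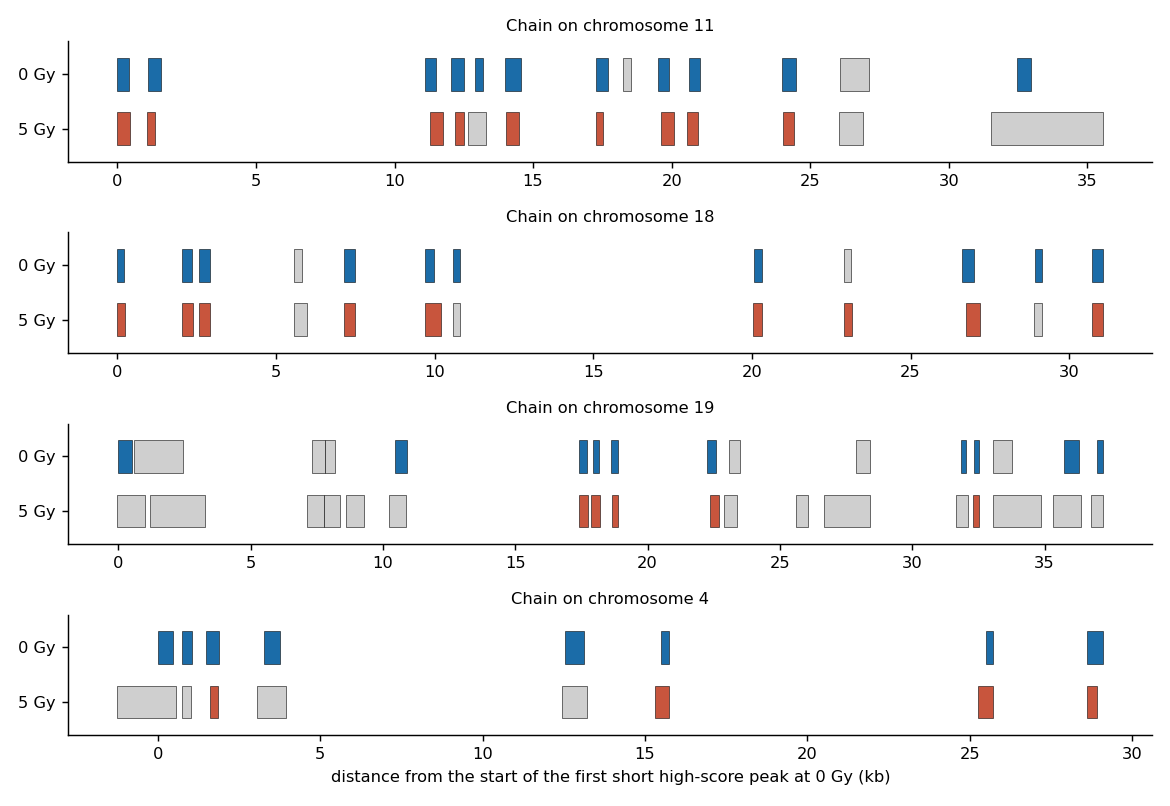
The 4 chains with the most short high-score peaks at 0 Gy, drawn by distance from the start of the first of them (kb), with 0 Gy above and 5 Gy below in each panel. Coloured boxes are short high-score peaks and grey boxes other peaks, to scale. Most boxes have a counterpart at the same place in the other list, and some blue boxes lie over longer grey boxes at 5 Gy, as at the end of the chromosome 11 chain.

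Nearly every short high-score peak had a counterpart at the other dose. Of the 1270 at 0 Gy, 1266 (99.7%, 99.2 to 99.9) overlapped a 5 Gy peak by at least 1 bp, beside 58.1% of all 0 Gy peaks. All 765 at 5 Gy (interval 99.5 to 100%) overlapped a 0 Gy peak, beside 73.0% of all 5 Gy peaks. Long peaks of score 1000 or more were matched as often, 99.5% at 0 Gy and 99.9% at 5 Gy. Among peaks under 600 bp the share rose with score, from 27.4% of 0 Gy peaks and 43.9% of 5 Gy peaks of score 60 to under 100, through 82.6% and 93.9% at 250 to under 500, to 96.7% and 98.8% at 500 to under 1000.

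The 4 unmatched 0 Gy peaks were short even for the class, at 181 to 267 bp, and scored 1039.87 to 1151.09. The highest of them was on chromosome 8 (104390231 to 104390497, 267 bp). The others were on chromosome 4 (44724066 to 44724294, 229 bp, score 1109.47), chromosome 5 (83258992 to 83259223, 232 bp, score 1078.89) and chromosome 1 (77632365 to 77632545, 181 bp). The nearest 5 Gy peak was 1989, 10860, 19588 and 2357 bp away from them, in that order. The peak on chromosome 5 also had no other 0 Gy peak within 10 kb.

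Borders and scores were compared in one-to-one pairs, that is, pairs of a 0 Gy and a 5 Gy peak that overlapped no further peak of the opposite list. They took in 1193 of the 1270 short high-score peaks at 0 Gy and 733 of the 765 at 5 Gy. The other 73 matched peaks at 0 Gy and 32 at 5 Gy lay against several peaks or shared their partner with other peaks. Both peaks met the rule in 571 pairs, the 0 Gy peak alone in 622 and the 5 Gy peak alone in 162. Of the 1193 peaks at 0 Gy, 219 had a partner of 600 bp or more, and 565 (47.4%) lay wholly inside their partner. At 5 Gy 92 of 733 had a long partner, and 135 of the 733 (18.4%) lay wholly inside their partner, whatever its length. Without shared borders, the 5 Gy peak reached past both ends in 542 of the 1193 pairs and 6203 of all 19750 one-to-one pairs. It lay inside both ends in 122 of the 733 pairs and 3261 of all. Only the own length was bounded by the rule, so lying inside the partner is partly set by the choice of peaks.

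The borders of the 571 pairs were close at both ends. The starts differed by a median of 23 bp (20 to 27) and the ends by a median of 29 bp (23 to 36). In 237 pairs (41.5%, 37.5 to 45.6) both borders were within 50 bp, beside 25.3% of all 19750 one-to-one pairs. In 152 pairs (26.6%) both were within 25 bp. Pairs of long peaks of score 1000 or more at both doses had both borders within 50 bp in 29.1% of cases (27.4 to 30.8), and pairs of short peaks of score under 1000 at both doses in 34.5% (33.4 to 35.5). Limiting length and score at both doses narrows how far the borders can differ. With the class taken from the 0 Gy peak alone, the share was 34.9% (32.2 to 37.6) for short high-score peaks, 37.7% (35.0 to 40.5) for short peaks of score 500 to under 1000 and 28.4% for long peaks of score 1000 or more. The borders of short high-score peaks were thus closer in base pairs than those of long ones and not distinguishable from those of the next lower scores. As a fraction of the joined length, the overlap had a median of 0.80 (0.78 to 0.82) in the 571 pairs and 0.94 in pairs of long peaks, whose length is several times greater.

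In 138 of the 571 pairs (24.2%) 1 border was within 25 bp and the other over 100 bp away, beside 20.8% of all one-to-one pairs. In 35 (6.13%) both were over 100 bp away, beside 18.5% of all. The same starts were found in 13 pairs, the same ends in 12, and both in 1. The 5 Gy peak began earlier in 354 pairs and later in 204, and it ended later in 357 and earlier in 202, with median shifts of -9 bp at the start and 11 bp at the end. It was the longer peak in 364 pairs (63.7%, 59.7 to 67.6), beside 58.3% of all pairs. The median difference of length was 21 bp (15 to 27). Over all 19750 one-to-one pairs the start came earlier at 5 Gy in 11221 and later in 8178. The end came later there in 11248 and earlier in 8332. Median shifts over all pairs were -8 bp at the start and 10 bp at the end, and lengths differed by a median of 22 bp. The size of the median widening was thus not particular to the 571 pairs.

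**Figure D4:**
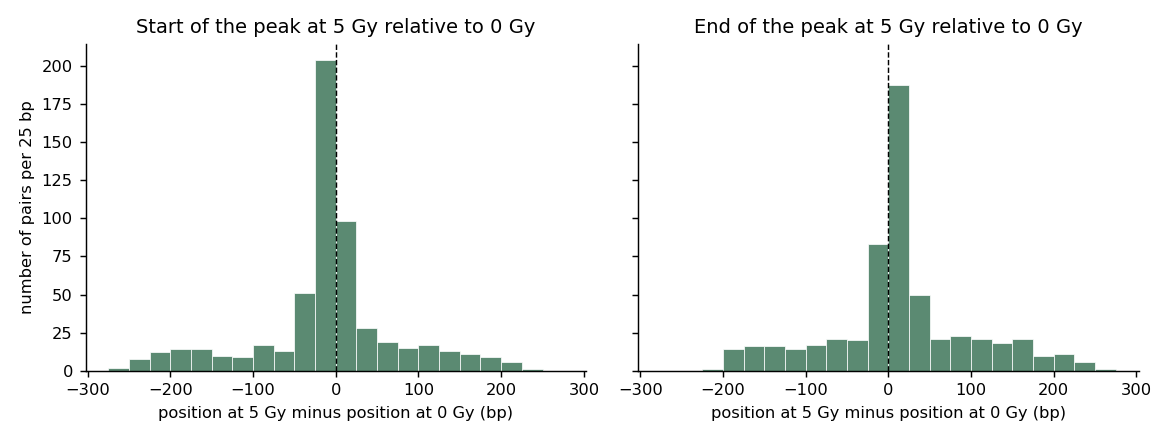
Start (left) and end (right) of the 5 Gy peak relative to the 0 Gy peak in the 571 pairs of short high-score peaks, in 25 bp classes, with the vertical axis giving the number of pairs. Most pairs lie close to 0, with the start more often slightly earlier and the end slightly later at 5 Gy, and flat shoulders reach beyond 100 bp on both sides.

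At 0 Gy, from 300 bp upward, agreement of borders at equal length was lower under a score of 250 and alike above it. Among 0 Gy peaks of 300 to under 450 bp, both borders were within 50 bp in 32.7% of pairs at a score of 1000 or more (28.4 to 37.3), 29.2% at 250 to under 1000 (26.6 to 32.0) and 17.5% under 250 (16.3 to 18.9). Among those of 450 to under 600 bp the shares were 25.6%, 26.4% and 13.4%. Below 300 bp they were 52.1%, 55.9% and 48.2%, with the interval of short high-score peaks (46.5 to 57.7) overlapping both others.

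Isolated short high-score peaks had closer borders than those with neighbours. Whether this holds for other classes of peaks as well was not tested. Of the short high-score peaks at 0 Gy with no other peak within 10 kb, 56.1% of 180 pairs (48.8 to 63.2) had both borders within 50 bp, against 31.3% (28.0 to 34.7) with 1 to 5 other peaks and 30.6% (25.6 to 36.2) with 6 or more. At 5 Gy the shares were 57.9% (49.2 to 66.2), 33.5% (29.4 to 37.8) and 36.6% (28.6 to 45.4). The median overlap was 0.87 of the joined length for isolated 0 Gy peaks and 0.74 for those with 1 to 5 neighbours. The share with a partner of score 1000 or more differed less, 66.7% (59.5 to 73.1) against 60.4% (56.8 to 63.8) at 0 Gy, with overlapping intervals.

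The closest pair was identical at both doses, from 127677066 to 127677428 on chromosome 6 (363 bp), scoring 3100 in both lists and no other peak within 10 kb. On chromosome 2 the peaks from 174777585 to 174778061 at 0 Gy and to 174778062 at 5 Gy differed by 1 bp, yet scored 2598.19 and 1232.93. Differences of 2 or 3 bp in all were seen on chromosome 13 (73610509 to 73610934 at 0 Gy, 3100 at both doses), chromosome 1 (45535695 to 45536085, 1318.90 and 1169.14) and chromosome 19 (3094314 to 3094810, 1538.25 and 1610.56). Apart from the chromosome 2 pair, these pairs had no other peak within 10 kb at either dose.

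Pairs with the most distant borders joined a short peak with a long one. The 507 bp peak on chromosome 17 (1303073 to 1303579, score 3100) lay at the end of a 5 Gy peak of 2915 bp, also at 3100. On chromosome 11 a 429 bp peak (107673496 to 107673924, score 2720.77) shared its end within 1 bp with a 5 Gy peak of 1526 bp that scored 3176.45, and a 457 bp peak (101984804 to 101985260, score 2045.66) shared its end within 20 bp with one of 1360 bp that scored 783.61. On chromosome 4 neighbouring 0 Gy peaks from 166259741 to 166260250 (score 2208.30) and from 166261344 to 166261605 (score 3100) faced 5 Gy peaks of 1335 and 1601 bp that scored 276.95 and 566.26. There the longer calls carried much lower scores.

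The reverse, a short 5 Gy peak against a long 0 Gy peak, was seen on chromosome 9 (131266966 to 131267397, score 1148.44), where the 0 Gy peak had 1776 bp and scored 1903.97. It was also seen on chromosome 15 (44120149 to 44120744, score 1457.38), against 1629 bp and 1017.02, and on chromosome 7 (93633270 to 93633718, score 1741.73), against 1079 bp and 2894.74. On chromosome 5 (171303193 to 171303577, score 1171.92) the 0 Gy peak had 955 bp and scored 1239.09, and on chromosome 19 (46010697 to 46011198, score 2891.07) it had 854 bp and scored 3100.

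A counterpart at the other dose did not always score 1000 or more. Of the 1193 short high-score peaks at 0 Gy in pairs, 736 (61.7%, 58.9 to 64.4) had a 5 Gy partner of score 1000 or more, where 19.5% of all pairs had such a 5 Gy peak. Of the 733 at 5 Gy, 655 (89.4%, 86.9 to 91.4) had a 0 Gy partner of that score, where 23.9% of all pairs had such a 0 Gy peak. Among 3520 pairs with a long 0 Gy peak of score 1000 or more, the 5 Gy peak was also long and of that score in 2754. These 2754 pairs stood among 3121 with such a long peak at 5 Gy. Partners of that score under 600 bp are not in this count. At 0 Gy short high-score peaks thus had a partner of that score less often than long ones. The own score was bounded from below by the rule and the partner's was not, so a lower partner score is partly set by the choice of peaks. The partners at 5 Gy scored from 82.28 to 3212.65, with quartiles of 737.23 and 2398.69, and their median lay at the 89.2th percentile of the 5 Gy list. The partners at 0 Gy scored from 190.01 to 3224.61, with a median at the 93.7th percentile of the 0 Gy list.

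A high own score went with a high partner score. Among 0 Gy peaks of score 1000 to under 1500, 103 of 404 (25.5%) had a partner of 1000 or more, and among those of 3100 or more 322 of 326 (98.8%) did. At 5 Gy the shares were 198 of 260 (76.2%) and 192 of 192. The share also differed with length at 0 Gy, being 39.3% (32.1 to 46.9) under 250 bp and 71.1% (65.6 to 76.0) from 500 to 599 bp. At 5 Gy it was 79.1% (64.8 to 88.6) and 87.3% (82.5 to 91.0), with overlapping intervals. The median own score at 0 Gy was 1263 under 200 bp, 1562 from 200 to under 250 bp and 2236 from 500 bp. Length was therefore not told apart from own score.

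Where both peaks met the rule, the bounds were the same for both doses. In 146 of the 571 pairs both scores were 3100 or more, in 100 the 0 Gy score alone and in 12 the 5 Gy score alone. Over all 19750 one-to-one pairs it was the 0 Gy score alone in 535 and the 5 Gy score alone in 136. Among the 2754 pairs of long peaks of score 1000 or more these counts were 368 and 108. Of the 571 pairs, 313 had both scores under 3100. In these the 5 Gy score was the lower in 219 (70.0%) and the higher in 94. It was the lower in 63.9% of all 17408 pairs under 3100. Lower 5 Gy scores were thus the more common outcome over the lists in full as well, and the part of library depth in this was not tested. The median ratio of the 5 Gy to the 0 Gy score was 0.83 in these 313 pairs and 0.80 in all pairs under 3100. Spearman's rho across the 313 pairs was 0.31. It describes peaks of the same libraries and a range of scores cut at 1000 and 3100.

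**Figure D5:**
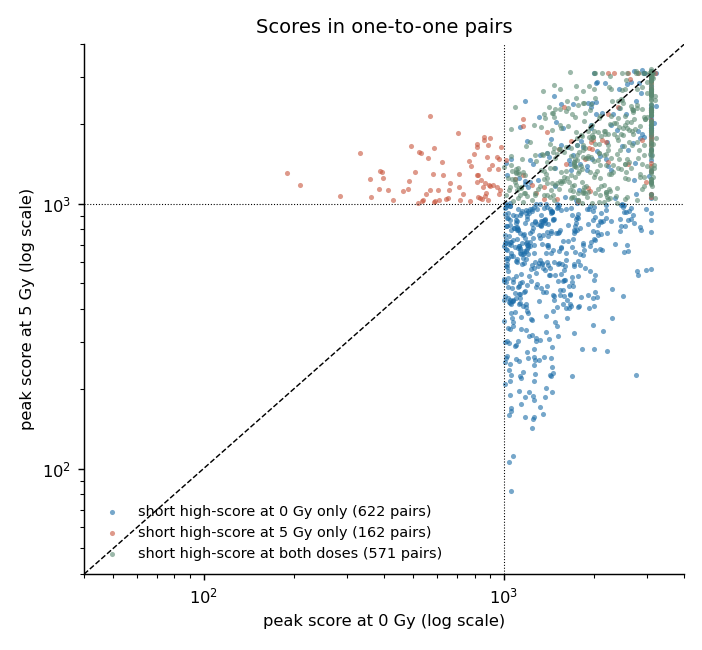
Peak scores at 0 Gy (horizontal) and 5 Gy (vertical), both on log scales, in the 1355 one-to-one pairs with a short high-score peak at either dose. Dotted lines mark the minimum of 1000 and the dashed line equal scores. Pairs that met the rule at 0 Gy alone (622, blue) reach down to 82.28 at 5 Gy, those at 5 Gy alone (162, red) to 190.01 at 0 Gy, and the column and row at 3100 are tied scores.

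The lowest partner scores belonged to peaks whose own scores lay between 1039.87 and 1557.38. After chromosome 1 (109482637 to 109482802, given above), the lowest 5 Gy partners were on chromosome 5 (83476185 to 83476358, 1039.87 at 0 Gy and 106.02 at 5 Gy), chromosome 7 (105925240 to 105925456, 1072.76 and 111.43), chromosome 19 (1031020 to 1031252, 1239.09 and 142.28) and chromosome 1 (161011073 to 161011253, 1252.93 and 153.58). The last of these kept its borders within 3 bp. For short high-score peaks at 5 Gy, the lowest 0 Gy partners after the chromosome 6 peak at 20955642 were on chromosome 6 (34855335 to 34855849, 209.09 at 0 Gy and 1176.82 at 5 Gy), chromosome 14 (52186727 to 52187315, 285.48 and 1063.90), chromosome 10 (116697959 to 116698528, 332.80 and 1557.38) and chromosome 3 (132120048 to 132120646, 358.13 and 1233.89). The peaks on chromosomes 10 and 3 had no other 5 Gy peak within 10 kb.

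The 20 pairs with the highest lower score, ranked among ties by overlap, all had a lower score of 3100 and an overlap of 0.94 to 1 of the joined length. Their 0 Gy lengths ran from 311 to 573 bp, and their borders differed by 0 to 31 bp in all. Since overlap chose among the 146 pairs with both scores at 3100 or more, the ranking set the close borders of these 20. Pairs with no other 0 Gy peak within 10 kb lay on chromosome 2 (7464668 to 7465202 at 0 Gy), chromosome 1 (226680608 to 226681093) and chromosome 10 (37283894 to 37284462), besides those on chromosomes 6 and 13 given above. Pairs with a 0 Gy neighbour within 1 kb lay on chromosome 1 (245019143 to 245019510, with gaps of 179 and 202 bp on its sides and 7 other peaks within 10 kb), chromosome 8 (71495825 to 71496261) and chromosome 3 (31496711 to 31497283). Another within 1 kb of a neighbour lay on chromosome 1 (40746970 to 40747424). Further pairs lay on chromosome 1 (27992543 to 27993047, 169096408 to 169096773 and 85736268 to 85736640), chromosome 2 (224849419 to 224849729 and 29001622 to 29002163), chromosome 6 (111195980 to 111196475), chromosome 7 (148716030 to 148716359), chromosome 14 (36288940 to 36289448), chromosome 16 (21172269 to 21172637), chromosome 17 (7212864 to 7213175) and chromosome 18 (25569999 to 25570348). The pairs at 148716030 and 25569999 belonged to the chains on chromosomes 7 and 18 described above, and that at 40746970 to the chain on chromosome 1.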

How the data were processed

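The deposited values were 2 peak lists, 1 per dose, each of a HuR library over the IgG library of its dose. Per the submitters' processing notes the authors used cutadapt 1.9.1, Bowtie2 2.2.4 and the build hg19. Peak names begin with MACS, and its version is not given in the sources used here. The deposited score per peak is the authors' value, and the lists give no reads, strand or gene. Depth per library is unknown. The members and lists were chosen with earlier results of these data known.

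Starts were counted from 1. Overlap of at least 1 bp, gaps, chains within 10 kb and one-to-one pairs were computed in Python 3.11.15 with numpy 2.4.6 and pandas 2.3.3. Overlaps were checked against bedtools 2.31.1 and tested on simulated data. Shares have Wilson intervals from scipy 1.17.1 and medians intervals from binomial order statistics. No test between doses was made, because each group had 1 library. Loci were named by a rule: unmatched peaks, the 20 best pairs, and 5 each of the shortest, most and least isolated, closest and most distant borders, and lowest partner scores. Chains, repeated scores, close gaps and agreement by isolation were examined and their examples chosen after their values were seen. Genes, sequences and cell type markers were not analysed here, since no hg19 annotation was used.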

Additional observations from a re-analysis of the deposited data

How the results depend on the processing

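Of 44 values recomputed under alternative settings, 30 lay inside the counting interval given in the text (for counts, within 1.5 times) and 14 did not. The number of short high-score peaks was 835 at 0 Gy and 493 at 5 Gy with a minimum score of 1500. The share without another peak was 59.4% and 61.4% within 1 kb, and 4.88% and 6.01% within 50 kb. The matched share was 89.8% and 93.5% when at least 50% of both peaks had to overlap, and 61.8% and 89.5% with partners of score 1000 or more. It was 100% at 0 Gy with a minimum score of 1500. The share with a partner of 1000 or more was 46.7% and 81.6% without pairs of 3100 or more, and 58.7% at 0 Gy with a length limit of 500 bp. The median overlap stayed within its interval under the 4 alternatives tried at each dose. No paired analysis was possible because only 1 library was made for each dose and antibody. Since depth is unknown, it limits comparisons of peak number and score between the lists.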

Other observations

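Exact repeats of a score were more common among short than among long high-score peaks. Among those from 1000 to under 3100, the score of 87 of 926 short peaks at 0 Gy (9.40%, 7.68 to 11.4) and 59 of 565 at 5 Gy (10.4%, 8.18 to 13.2) was also held by another peak of the list. For long peaks the shares were 3.20% (2.57 to 3.99) and 3.15% (2.48 to 3.99). The score 1039.87 was held by 3 short peaks of 162 to 181 bp at 0 Gy, among them 1 of the 4 peaks without a 5 Gy match, and 1691.17 by 3 of 259 to 416 bp. Scores chose these peaks, so the shares are a description of the lists.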
